A study of Mus musculus with 4 samples.

Results

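The insulin, growth hormone and IGF axis was followed through 10 genes of the deposited expression table, chosen by name: the growth hormone receptor Ghr and its feedback inhibitor Socs2, the circulating growth factor Igf1 and its partners Igfals, Igfbp1, Igfbp2 and Igfbp3, and the insulin receptor Insr with its adaptors Irs1 and Irs2. All 10 were among the 22103 entries of the table, and all 10 reached the mean of 0.1 FPKM required for testing, as did 12346 genes in all. FPKM are fragment counts scaled to transcript length and to library size, so that levels of genes of unlike length can be set side by side. RNA was measured in whole liver from 2 hepatocyte-specific Brg1 knockout mice (Brg1LKO, labelled KO and called LKO here) and 2 wild type (WT) littermates. LKO mice carried a floxed Smarca4 gene, which encodes the chromatin remodelling ATPase Brg1, together with Cre recombinase driven by the albumin promoter. The study describes the deletion as specific to hepatocytes. Whether all other liver cells kept the gene was not measured here. Per the methods of the study the mice were males of 8 weeks at the start. Per the labels all 4 drank alcohol for 15 days, so that no group without alcohol was compared. By the account of the study, this was an ethanol liquid diet for 2 weeks and then a single gavage of alcohol. The labels do not say whether the WT littermates carried the floxed allele.

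Growth hormone reaches the liver from the pituitary and binds its receptor on hepatocytes, where the kinase Jak2 phosphorylates the transcription factors Stat5a and Stat5b. These switch on Igf1, the gene of the main circulating growth factor, Igfals, the gene of the acid-labile subunit that keeps IGF1 and IGFBP3 in a long-lived complex in blood, and the inhibitors Socs2 and Cish, which damp the receptor. Insulin acts through its own receptor and the adaptors IRS1 and IRS2 on PI3 kinase and AKT, which keeps FOXO1 out of the nucleus and thereby represses Igfbp1, Irs2 and the genes of glucose production. In mouse liver the pattern of growth hormone pulses also sets which genes are expressed more in males or in females.

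The upstream sequences of the members were searched for letters that such regulators are known to bind. RefSeq promoter windows (GRCm38.p6) were matched for 8 of the 10 members. Insr and Socs2 were not matched. In the 250 bases before each start, 3 short motifs were searched on both strands: CAAAACA (reverse complement TGTTTTG) and CAAAATA (reverse complement TATTTTG), which occur in insulin response elements bound by FOXO proteins, and TTCNNNGAA, the palindrome bound by STAT5. The windows of Igfbp1, Irs2 and Irs1 are printed because they hold the FOXO-type letters and belong to genes that differ below in how they varied among the LKO livers. A window of Igfals is printed for the STAT5-type letters. Capitals mark the matches, each sequence runs 5′ to 3′ on the strand of its gene, and base −1 is the last base before the start.
Igfbp1, chr11:7197537-7197786, plus strand: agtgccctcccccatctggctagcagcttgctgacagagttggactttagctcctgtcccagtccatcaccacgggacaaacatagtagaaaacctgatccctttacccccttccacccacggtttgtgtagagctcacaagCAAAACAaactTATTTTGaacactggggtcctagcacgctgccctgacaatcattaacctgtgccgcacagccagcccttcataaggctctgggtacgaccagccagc
Irs2, chr8:11008930-11009179, minus strand: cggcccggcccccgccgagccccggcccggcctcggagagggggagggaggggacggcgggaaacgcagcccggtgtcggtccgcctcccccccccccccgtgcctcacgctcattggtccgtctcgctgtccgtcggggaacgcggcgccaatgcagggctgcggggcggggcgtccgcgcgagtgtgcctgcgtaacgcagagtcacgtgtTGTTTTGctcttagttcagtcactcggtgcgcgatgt
Irs1, chr1:82291440-82291689, minus strand: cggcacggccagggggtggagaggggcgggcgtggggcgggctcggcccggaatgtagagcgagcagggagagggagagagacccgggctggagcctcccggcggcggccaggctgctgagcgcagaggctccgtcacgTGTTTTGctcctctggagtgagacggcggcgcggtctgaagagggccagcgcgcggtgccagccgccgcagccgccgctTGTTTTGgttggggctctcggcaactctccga
Igfals, chr17:24877981-24878230, plus strand: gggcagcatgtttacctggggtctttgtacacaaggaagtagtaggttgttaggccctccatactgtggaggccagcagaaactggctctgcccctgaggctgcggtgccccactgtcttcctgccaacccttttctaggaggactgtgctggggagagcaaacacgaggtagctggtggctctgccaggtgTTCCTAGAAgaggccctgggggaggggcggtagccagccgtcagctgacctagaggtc
Igfbp1 had CAAAACA starting at −108 and TATTTTG starting at −97. Irs2 had TGTTTTG starting at −37, and Irs1 had the same letters starting at −111 and at −32. The printed window of Igfals, which belongs to the second of its 3 listed starts, had TTCCTAGAA starting at −58, and that of the first start had TTCTCAGAA starting at −236. The windows of Igf1, Igfbp2, Igfbp3 and Ghr had no match to any of the 3 motifs. Across all 32851 promoter windows, 5.56% held CAAAACA, 3.95% held CAAAATA and 7.02% held TTCNNNGAA, so that the matches describe these windows and do not by themselves mark a binding site.

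The deleted gene checked the labels. WT livers had 1.78 and 1.95 FPKM of Smarca4 and LKO livers had 0.608 and 0.579 FPKM, a log2 fold change of −1.50 (SE 0.34, adjusted p = 1). The call used throughout was an unadjusted p below 0.05 in limma together with a change of more than 2-fold, which is the threshold of the study. At this threshold 121 of the 12346 genes tested were called (0.98%), of which 54 were higher and 67 lower in LKO livers. At an unadjusted p below 0.05 alone, 247 genes passed (2%), and at a Benjamini-Hochberg adjusted p below 0.05 limma called 0. With 2 livers in each group, p-values rest on the spread between these livers. The fit also draws the variance of each gene towards that of genes at a similar level. The spread over further mice is not measured. Hepatocyte markers leaned to neither side, with 5 of 10 higher and 5 lower in LKO livers. Their log2 fold changes ran from −0.25 for Serpina1c to 0.53 for Tat, and none passed the threshold. Summed levels were 18361 to 22419 FPKM in WT and 19174 to 21223 FPKM in LKO livers. These sums were set largely by Alb, at 10710 to 12486 FPKM, and say little of the other markers. All 9 Kupffer cell and macrophage markers were higher in LKO livers, with a summed level of 35.0 and 35.8 FPKM in WT livers against 44.4 FPKM in LKO replicate 1 and 101 FPKM in LKO replicate 2. Of these 9, 3 passed the threshold (33.3% against 0.98% of all genes tested), namely Cd68 (log2 fold change 1.47), Cd5l (1.21) and Vsig4 (1.00), and 7 had both LKO values above both WT values (77.8% against 20.7%). Without LKO replicate 2 the changes were 1.05 for Cd68, which kept its call, and 0.25 for Cd5l and 0.15 for Vsig4, which did not. Cd5l and Vsig4 also lost the call with either WT liver left out, under both other scalings and with no filter, and Vsig4 also with either other constant and without the variance trend. In whole tissue, a change in the number of cells of a type and a change in RNA per cell cannot be told apart. By flow cytometry and by staining, the study found macrophages little altered in LKO livers.

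None of the 10 axis genes passed the threshold that 0.98% of all genes tested passed, and none had an unadjusted p below 0.05. Of the 10, 6 were higher and 4 lower in LKO livers, with a median log2 fold change of 0.05 against −0.02 over all genes tested. The median of the members turned to −0.06 without WT replicate 1 and −0.07 without LKO replicate 1, and it was 0.26 without LKO replicate 2. The largest rise was 0.56 for Irs2 and the largest fall was −0.54 for Socs2, both on the log2(FPKM + 0.1) scale. In 2 of the 10 genes both LKO values lay outside the WT values on the same side, with Igfbp2 above and Socs2 below. That is 20% of the members, and 20.7% of all genes tested separated in the same sense. The 95% intervals were wide, and those of Igf1, Igfbp1, Igfbp2, Igfbp3, Irs2, Igfals and Socs2 each reached past a 2-fold change in one direction or both, so that the absence of a call does not show that the genes were unaltered.

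**Figure D1:**
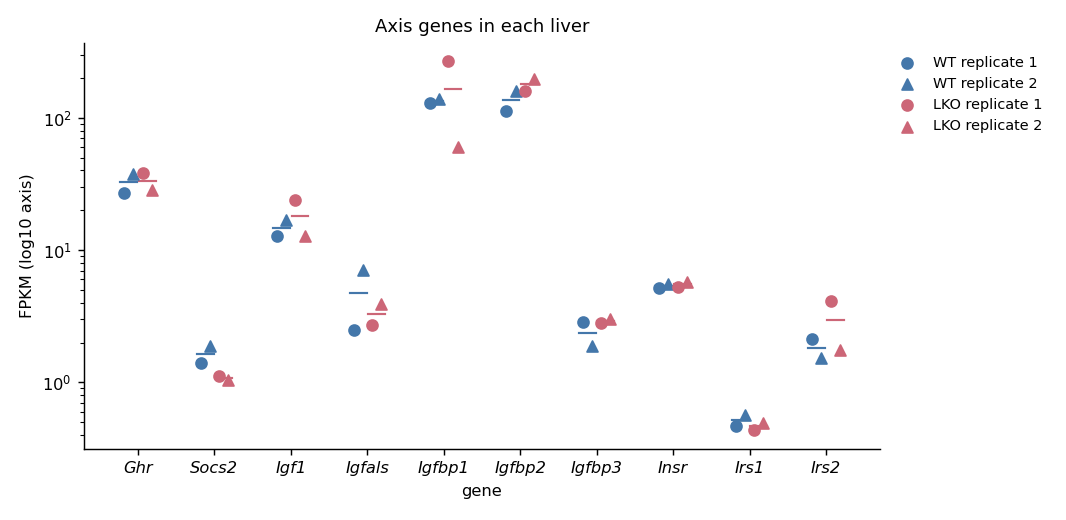
FPKM of the 10 axis genes (log10 axis) in each of the 4 livers, with WT in blue, LKO in red, circles for replicate 1, triangles for replicate 2 and short bars for the group means. WT and LKO points overlap for all but Socs2 and Igfbp2, and the LKO points of Igfbp1 lie far apart, at 268 and 60.2 FPKM.

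By level, the axis was dominated by binding proteins. Igfbp2 and Igfbp1 ranked 186 and 195 among all entries by mean FPKM, ahead of Ghr at 782 and Igf1 at 1317. Insr followed at rank 3079 and Igfals at 3763, then Igfbp3 at 4910, Irs2 at 5197 and Socs2 at 6851, with Irs1 last at 9568. Neighbours in that order were not all distinct: the ranges of Igfbp1 and Igfbp2 over the 4 livers overlapped, as did those of Igfals with Insr and with Igfbp3 and those of Irs2 with Igfbp3 and with Socs2. The members rested on an estimated 310 reads or more in every liver, the lowest being Irs1 in LKO replicate 1.

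Ghr, the receptor through which growth hormone acts, was at 27.1 and 37.8 FPKM in WT livers and at 38.3 and 28.6 FPKM in LKO livers. The groups overlapped fully, with means of 32.5 ± 7.58 FPKM in WT and 33.5 ± 6.86 FPKM in LKO livers (SD, n = 2 each). The fitted log2 fold change was 0.05 (SE 0.34, 95% interval −0.69 to 0.79, adjusted p = 1). The kinase and the transcription factors downstream of the receptor, named here for their place in the pathway, did not pass the test either. Jak2 was at 0.526 and 0.629 FPKM in WT livers and at 0.468 and 0.479 FPKM in LKO livers (log2 fold change −0.24, adjusted p = 1). Stat5b, the more abundant of the pair in these livers, was at 5.35 and 6.92 FPKM in WT livers and at 5.43 and 4.27 FPKM in LKO livers (log2 fold change −0.33, adjusted p = 1). Stat5a was at 0.325 and 0.414 FPKM against 0.475 and 0.251 FPKM (log2 fold change −0.06, adjusted p = 1).

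Socs2 encodes a suppressor of cytokine signalling that STAT5 induces and that limits the growth hormone receptor. It was at 1.39 and 1.88 FPKM in WT livers and at 1.12 and 1.04 FPKM in LKO livers. Both LKO livers were below both WT livers, at 66.2% of the WT mean. The log2 fold change of −0.54 (SE 0.34, 95% interval −1.28 to 0.20) did not pass the test (adjusted p = 1). The Socs2 row was deposited under a transcript annotated as subject to nonsense-mediated decay, so that its absolute FPKM depends on which transcript length was used. Set against the receptor in the same liver, the linear ratio of Socs2 to Ghr was 0.0512 and 0.0497 in WT livers and 0.0293 and 0.0364 in LKO livers. That log2 ratio was lower by 0.63 in LKO livers, with SDs of 0.03 in WT and 0.22 in LKO livers, and the exact two-sided permutation test gave p = 0.333, the smallest that 2 against 2 livers allow (adjusted p = 0.889 over 4 ratios).

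Cish, another STAT5-induced inhibitor of the receptor, was the gene of the growth hormone receptor signalling list that passed the threshold. It was at 1.57 and 1.80 FPKM in WT livers and at 0.907 and 0.680 FPKM in LKO livers, so that both LKO livers were below both WT livers. The log2 fold change was −1.01 (SE 0.34, 95% interval −1.75 to −0.27, adjusted p = 1). The call was close to the limit: the change was −0.97 after median-ratio rescaling and −0.98 under quantile normalization, both short of 2-fold. Leaving out WT replicate 1 gave −1.10 with an unadjusted p above 0.05, leaving out WT replicate 2 gave −0.91 and leaving out LKO replicate 2 gave −0.82, none of which kept the call. Of the 12 tested genes of this list, 5 were higher and 7 lower in LKO livers, with a median log2 fold change of −0.06. Ghrhr, the receptor of the hypothalamic releasing hormone, was listed at 0 in all 4 livers.

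Among the genes that depend on the growth hormone pulse pattern, Bcl6 and Cyp2b9 had an unadjusted p below 0.05. Bcl6, a transcriptional repressor that competes with STAT5 for its sites and is itself repressed by STAT5, was at 0.292 and 0.372 FPKM in WT livers and at 0.624 and 0.672 FPKM in LKO livers. Both LKO livers were above both WT livers, with a log2 fold change of 0.80 (SE 0.35, adjusted p = 1), short of the 2-fold limit. Its unadjusted p was above 0.05 without WT replicate 1, without WT replicate 2 or with no filter on low genes. Cyp2b9, a cytochrome P450 expressed more in female liver, was at 0.665 and 1.09 FPKM in WT livers and at 0.314 and 0.389 FPKM in LKO livers. It passed the threshold with a log2 fold change of −1.09 (SE 0.37, adjusted p = 1), but the call did not hold without WT replicate 2 (−0.77) or without LKO replicate 1 (−0.97). The near-identical sequence of its Cyp2b neighbours may have shared reads with it.

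The sex-biased lists as a whole leaned to lower values in LKO livers. Of 13 tested male-biased genes 3 were higher and 10 lower, with a median log2 fold change of −0.20, which was 0.01 without WT replicate 2. Of 9 tested female-biased genes 2 were higher and 7 lower, with a median of −0.47, which was −0.24 without WT replicate 2. Over all genes tested, 46.1% were higher in LKO livers. Both LKO values lay outside the WT values on the same side in 6 of these 9 genes (66.7%) and in 4 of the 13 male-biased genes (30.8%), against 20.7% of all genes tested. The female-biased list includes Cyp3a41a, Cyp3a41b, Cyp3a44 and Cyp3a16, close copies of each other whose reads may have been split between them, so that its genes do not count as separate observations.

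**Figure D2:**
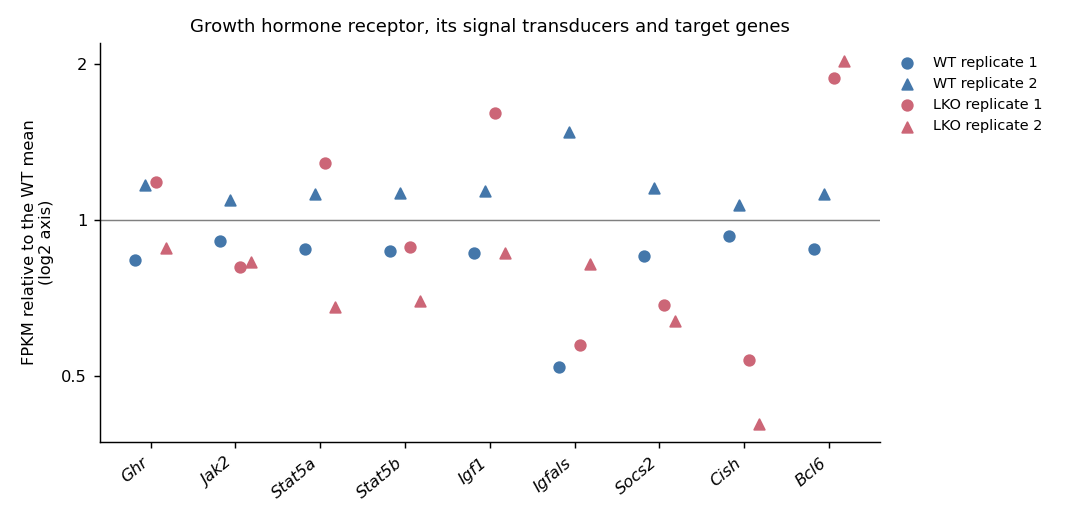
FPKM relative to the WT mean (log2 axis) of the growth hormone receptor, its signal transducers and STAT5 target genes in each liver, with WT in blue, LKO in red, circles for replicate 1 and triangles for replicate 2. Both LKO points lie below both WT points for Jak2, Socs2 and Cish and above them for Bcl6, while Ghr, Stat5a, Stat5b, Igf1 and Igfals overlap.

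Igf1 itself was at 12.8 and 16.8 FPKM in WT livers and at 23.8 and 12.7 FPKM in LKO livers. LKO replicate 1 was the highest of the 4 livers, and LKO replicate 2 was level with the lower WT liver. The means were 14.8 ± 2.88 FPKM in WT and 18.3 ± 7.81 FPKM in LKO livers (SD, n = 2 each), with a log2 fold change of 0.25 (SE 0.37, 95% interval −0.56 to 1.05, adjusted p = 1). The sign turned to −0.20 without LKO replicate 1. The 3 genes whose pattern over the 4 livers was closest to that of Igf1, among 7732 others averaging 1 FPKM or more, were Tns1, Adhfe1 and Alpl, with root mean square differences of 0.02, 0.03 and 0.04 on the centred log2 scale. Tns1, for instance, was at 10.4 and 13.3 FPKM in WT livers and at 19.3 and 10.4 FPKM in LKO livers. These genes were picked as the closest of 7732 on only 4 values each, and shared regulation with Igf1 was not tested.

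Igfals was at 2.48 and 7.03 FPKM in WT livers and at 2.73 and 3.90 FPKM in LKO livers. Both LKO values lay between the WT values, and the WT livers differed from each other 2.84-fold, a gap exceeded by 0.815% of the 7733 genes averaging 1 FPKM or more. On the log2 scale the change was −0.35 (SE 0.44, 95% interval −1.30 to 0.60, adjusted p = 1). Its value was set by which WT liver was kept, at −1.08 without WT replicate 1, which passed the threshold, and 0.38 without WT replicate 2, which did not. The linear ratio of Igfals to Igf1 was 0.194 and 0.418 in WT livers and 0.115 and 0.306 in LKO livers, which overlapped (log2 difference −0.60, exact two-sided permutation p = 0.667, adjusted p = 0.889).

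The binding proteins carry IGF1 in blood and limit its access to receptors. Igfbp1, the short-lived form that insulin represses, was at 129.6 and 138 FPKM in WT livers and at 268 and 60.2 FPKM in LKO livers. The WT livers were close together, whereas the LKO livers lay on either side of them and differed 4.46-fold, a gap exceeded by 0.905% of the 7733 genes. The group means therefore say little about either LKO liver: the log2 fold change was −0.07 (SE 0.52, 95% interval −1.18 to 1.03, adjusted p = 1). It was −1.15 without LKO replicate 1, past the threshold, and 1.00 without LKO replicate 2, with an unadjusted p above 0.05.

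Igfbp2, which insulin and fasting also regulate in the liver, was at 113 and 159 FPKM in WT livers and at 161 and 198 FPKM in LKO livers. Both LKO livers were above both WT livers, although LKO replicate 1 exceeded WT replicate 2 by very little. The log2 fold change was 0.41 (SE 0.33, 95% interval −0.30 to 1.12, adjusted p = 1). The linear ratio of Igfbp1 to Igfbp2 was 1.14 and 0.868 in WT livers, 1.67 in LKO replicate 1 and 0.304 in LKO replicate 2. The WT ratios lay between the LKO ratios (log2 difference −0.48, exact two-sided permutation p = 1, adjusted p = 1).

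Igfbp3, which forms the long-lived complex with IGF1 and the acid-labile subunit and is made in liver largely outside hepatocytes, was at 2.86 and 1.87 FPKM in WT livers and at 2.82 and 2.99 FPKM in LKO livers. The LKO livers were close together and WT replicate 2 was the low value. On the log2 scale the change was 0.31 (SE 0.35, 95% interval −0.44 to 1.07, adjusted p = 1), and it was 0.02 without WT replicate 2. Sinusoidal endothelial markers, which mark a non-hepatocyte source, had summed levels of 30.5 and 31.4 FPKM in WT livers and of 25.0 and 32.6 FPKM in LKO livers, with 2 of 9 higher and 7 lower in LKO livers. The part of these cells, or of the macrophages whose markers were higher in LKO livers, in the Igfbp3 values was not tested.

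Over all 7 binding protein genes, Igfbp1, Igfbp2, Igfbp4 and Igfbp7 made up nearly the whole summed FPKM. Igfbp1 was 38.3% and 33.2% of the sum in WT livers, 51.4% in LKO replicate 1 and 16.1% in LKO replicate 2. Igfbp2 was 33.5% and 38.3% in WT livers, 30.8% in LKO replicate 1 and 52.9% in LKO replicate 2. Igfbp3 was at most 0.844% in any liver. The leading binding protein transcript was thus Igfbp1 in WT replicate 1 and LKO replicate 1 and Igfbp2 in the other livers. Of 11 tested genes of the IGF ligand, receptor, binding protein and protease list, 4 were higher and 7 lower in LKO livers, none passed the threshold and none had a p below 0.05. The largest falls on that list were Igfbp6 (log2 fold change −0.85) and the protease Htra1 (−0.42), and the largest rises were the members Igfbp2 and Igfbp3. Igfbp6 and Htra1 were both below 1 FPKM in every liver. Igfbp6 rested on an estimated 3 to 50 reads per liver, and Htra1, at 0.0675 to 0.178 FPKM, on 10 to 29. Igf1r, the receptor of IGF1, was at 0.0184 to 0.0370 FPKM and Igf2 at 0.0392 to 0.111 FPKM over the 4 livers, both below the level for testing.

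**Figure D3:**
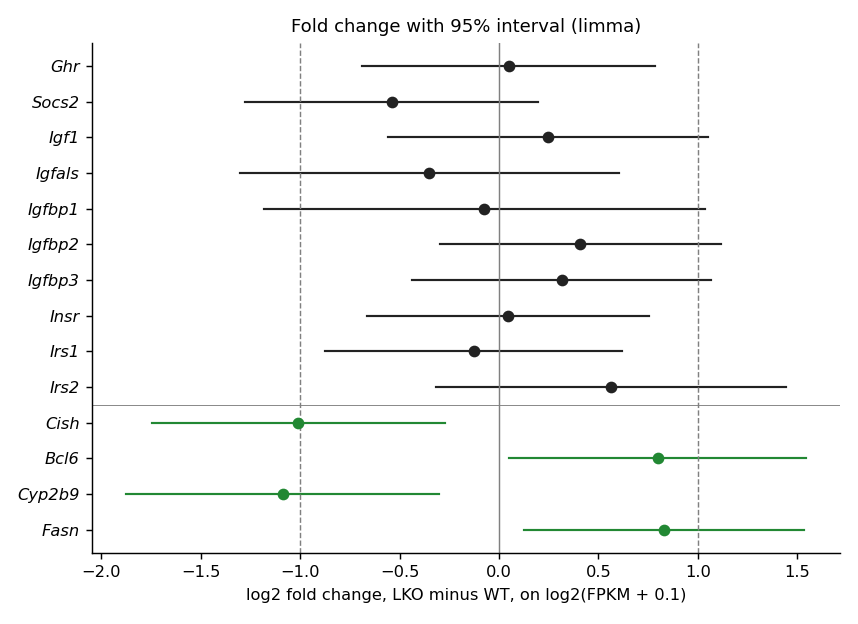
log2 fold change of LKO minus WT on the log2(FPKM + 0.1) scale with its 95% interval from limma, for the 10 axis genes in black and, in green, 4 other genes of the pathway lists with an unadjusted p below 0.05. Dashed lines mark a 2-fold change. All 10 black intervals cross 0, and the green intervals of Cish and Cyp2b9 lie below 0 and those of Bcl6 and Fasn above it.

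Insr, the insulin receptor, varied least of the members over the 4 livers, at 5.13 and 5.54 FPKM in WT livers and at 5.29 and 5.73 FPKM in LKO livers. The log2 fold change was 0.05 (SE 0.33, 95% interval −0.66 to 0.76, adjusted p = 1). Irs1 was at 0.465 and 0.569 FPKM in WT livers and at 0.434 and 0.494 FPKM in LKO livers, for a log2 fold change of −0.13 (SE 0.35, 95% interval −0.87 to 0.62, adjusted p = 1). The groups overlapped for both genes.

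Irs2, the adaptor whose gene insulin represses, was at 2.12 and 1.53 FPKM in WT livers and at 4.12 and 1.76 FPKM in LKO livers. LKO replicate 1 was the highest of the 4 livers, and LKO replicate 2 lay between the WT livers. On the log2 scale the change was 0.56 (SE 0.41, 95% interval −0.32 to 1.44, adjusted p = 1). It was 1.15 without LKO replicate 2, past the threshold, and −0.03 without LKO replicate 1. Irs2 exceeded Irs1 in every liver, by 4.56-fold and 2.68-fold in WT livers, 9.50-fold in LKO replicate 1 and 3.57-fold in LKO replicate 2 (log2 difference between groups 0.74, exact two-sided permutation p = 0.667, adjusted p = 0.889). That difference was 0.03 when LKO replicate 1 was left out.

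No adaptor, kinase or phosphatase of insulin signalling passed the threshold. Of 15 tested genes for the insulin receptor and its adaptors 9 were higher and 6 lower in LKO livers, with a median log2 fold change of 0.07, and none had a p below 0.05. Beside Irs2 the largest rise was in Ptpn1 (0.50), the phosphatase that dephosphorylates the receptor, and the largest falls were in the adaptor Sh2b2 (−0.27) and the inhibitor Enpp1 (−0.15). Of 30 tested genes for PI3 kinase, AKT and FOXO signalling 19 were higher and 11 lower, with a median of 0.03, and none had a p below 0.05. Among the genes reported here, the extremes of that list were Sesn2 (−0.57), a stress-induced inhibitor of mTORC1, Trib3 (−0.38), a pseudokinase that binds AKT, Tsc2 (0.33), a brake on mTORC1, and Mtor (0.25), the kinase of that complex.

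Of the insulin-induced genes reported here, Fasn had an unadjusted p below 0.05. Fasn, the fatty acid synthase, was at 9.06 and 10.4 FPKM in WT livers and at 18.1 and 16.6 FPKM in LKO livers. Both LKO livers were above both WT livers, with a log2 fold change of 0.83 (SE 0.33, 95% interval 0.12 to 1.54, adjusted p = 1), short of 2-fold. Its unadjusted p stayed below 0.05 without WT replicate 2 and rose above it when any other liver was left out. By qPCR after the same feeding, the study reported lower Fasn in LKO than in WT livers, the opposite direction to these FPKM. The reason for that difference was not tested. Of the 4 tested insulin-induced genes reported here 2 were higher and 2 lower, with a median of 0.25. Leaving out WT replicate 1 moved that median to 0.05, and leaving out WT replicate 2 moved it to 0.46.

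**Figure D4:**
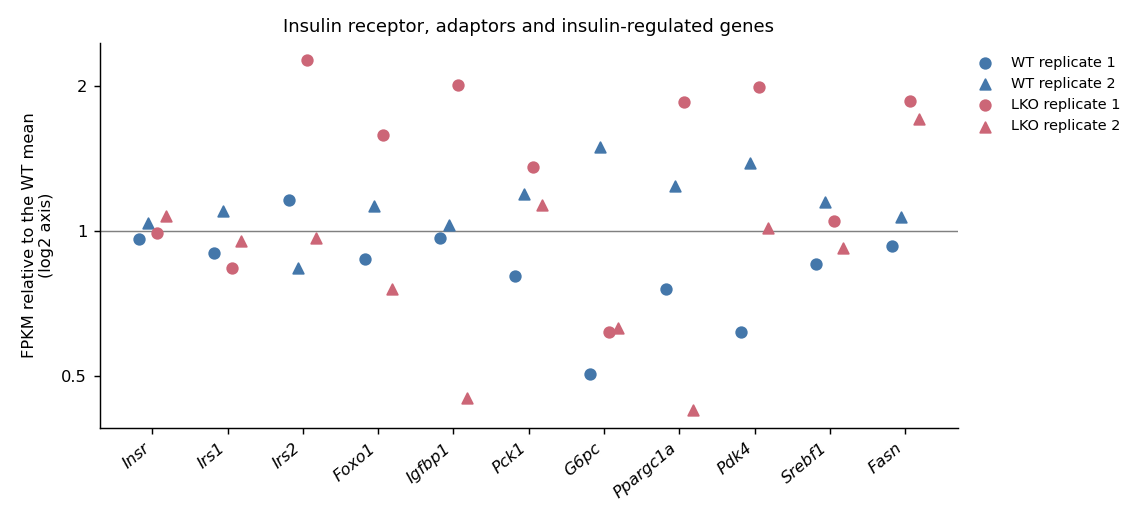
FPKM relative to the WT mean (log2 axis) of the insulin receptor, its adaptors and insulin-regulated genes in each liver, with WT in blue, LKO in red, circles for replicate 1 and triangles for replicate 2. Irs2, Foxo1, Igfbp1, Pck1, Ppargc1a, Pdk4 and Fasn are highest in LKO replicate 1, and both LKO points lie above both WT points for Fasn.

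Of the 8 insulin-repressed genes, 6 (75%) were highest in LKO replicate 1 (Igfbp1, Irs2, Pck1, Ppargc1a, Pdk4 and Fbp1), against 12.2% of all genes tested, while G6pc and Insr were not. That count was made after the values were seen. None of the 8 tested had a p below 0.05, 5 were higher and 3 lower, and in none did both LKO values lie outside the WT values on the same side. Beside Irs2 and Igfbp1, the largest rise was in Pdk4 (log2 fold change 0.58), which blocks pyruvate oxidation, and the largest fall in G6pc (−0.47), the last enzyme of glucose release. Pdk4 was at 0.943 and 2.11 FPKM in WT livers and at 3.04 and 1.55 FPKM in LKO livers. The following genes were picked after their values were seen. Ppargc1a, a coactivator of glucose production, was at 0.472 and 0.772 FPKM in WT livers, at 1.15 FPKM in LKO replicate 1 and at 0.264 FPKM in LKO replicate 2. Foxo1, of the PI3K, AKT and FOXO list like Ddit4, was at 1.65 and 2.13 FPKM in WT livers, at 2.99 FPKM in LKO replicate 1 and at 1.44 FPKM in LKO replicate 2. Ddit4, an inhibitor of mTORC1 that FOXO proteins and glucocorticoids induce, was at 3.94 and 4.82 FPKM in WT livers, at 10.6 FPKM in LKO replicate 1 and at 2.36 FPKM in LKO replicate 2. Of the 30 tested genes of the list that holds Foxo1 and Ddit4, 7 (23.3%) were highest in LKO replicate 1.

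In each of Igfbp1, Ppargc1a, Foxo1 and Ddit4, LKO replicate 1 was thus the highest of the 4 livers and LKO replicate 2 the lowest. The share of all genes tested with that order was not counted. Irs2 and Igf1 were also highest in LKO replicate 1. The ratio of LKO replicate 1 to LKO replicate 2 was 4.46 for Igfbp1, 4.50 for Ddit4, 4.35 for Ppargc1a, 2.34 for Irs2, 2.08 for Foxo1 and 1.87 for Igf1. The median gene was lower in LKO replicate 1 than in LKO replicate 2 by a log2 difference of −0.28. Between WT replicate 1 and WT replicate 2 that difference was alike, at −0.29. After median-ratio rescaling the ratios of LKO replicate 1 to LKO replicate 2 were larger, at 5.60 for Igfbp1, 2.93 for Irs2 and 2.34 for Igf1. Of the 10 hepatocyte markers, 3 (30%, against 12.2% of all genes tested) were highest in LKO replicate 1 (Tat, Tdo2 and Cps1). Others of the list, namely Apoa1, Serpina1c and F2, were lowest in that liver. These markers were also counted after the values were seen. Tat, an enzyme of tyrosine breakdown, was at 158 FPKM in both WT livers, 412 FPKM in LKO replicate 1 and 126 FPKM in LKO replicate 2. Apoa1 was at 2091 and 1692 FPKM in WT livers, 1424 FPKM in LKO replicate 1 and 2098 FPKM in LKO replicate 2. The labels give neither the hour of collection nor the feeding state of single mice, and the part of either in these values was not tested.

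**Figure D5:**
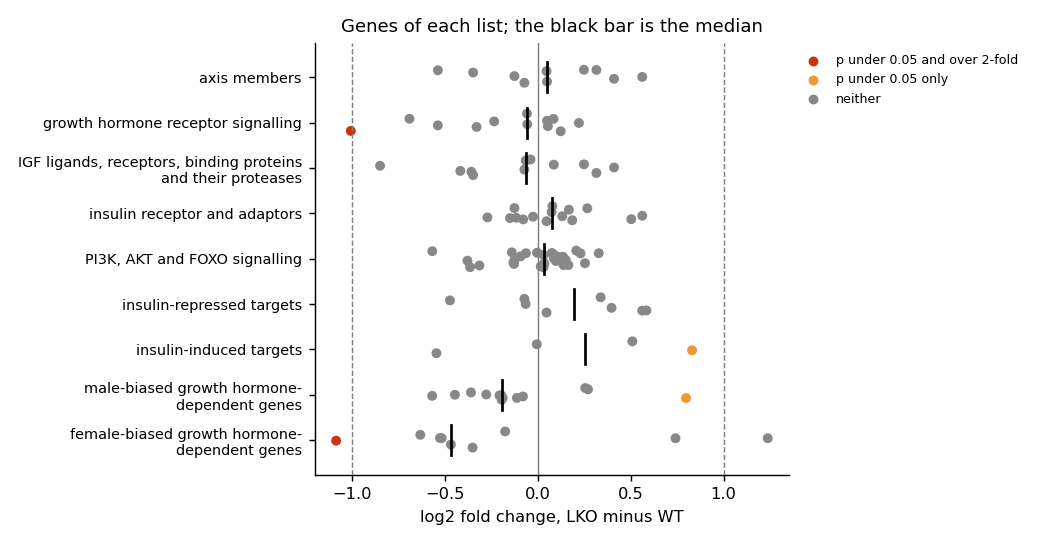
log2 fold change of LKO minus WT for each tested gene of the pathway lists, with a black bar at the median of each list and dashed lines at a 2-fold change. Red points passed p below 0.05 and 2-fold (Cish and Cyp2b9), orange points passed p below 0.05 only (Fasn and Bcl6), and the list medians lie between −0.47 and 0.25.

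Counted without the members, the pathway lists as reported here held 104 genes, of which 89 were tested. Of these, 41 were higher and 48 lower in LKO livers, 2 passed the threshold (Cish and Cyp2b9, both lower, 2.25% against 0.98% of all genes tested) and 4 had a p below 0.05, while 0 passed at an adjusted p below 0.05. Both LKO values lay outside the WT values on the same side in 23 of the 89, or 25.8% against 20.7% of all genes tested. The reads of Igf1, Irs1, Irs2 and Insr may include those of genes on the opposite strand that overlap them, since the strand setting used for counting is not given in the sources used here. The methods of the study name a stranded library kit, whereas the labels name a BGIseq protocol without saying whether strand was kept.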

How the data were processed

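Livers of 2 WT and 2 LKO mice, all given alcohol, were compared, grouped by the genotype label. The authors deposited 1 table of FPKM values per gene for the 4 livers; the submitters' processing notes name HISAT2 2.0.4, StringTie 2.1.4 and the GRCm38 build, whereas the methods of the study name Cufflinks and a stranded library kit and the labels a BGIseq protocol. Read counts were not used here, and a total of 72586500 to 80916000 reads per liver was estimated from the FPKM steps of low genes, of which 88.6% to 89.7% were whole within 0.1 read. FPKM were tested as log2(FPKM + 0.1) with limma 3.58.1 (empirical Bayes with trend, R 4.3.3) over the 12346 genes that averaged 0.1 FPKM or more, and p-values were adjusted over all of them by the Benjamini-Hochberg method. The added constant understates changes of low genes. The script was tested on simulated data. Within-liver ratios used FPKM without a constant and an exact permutation test (SciPy 1.17.1). Errors are SD over livers or SE of the fit. The members and the gene lists were chosen with earlier results of these data known. The lists are given without 2 genes that are not reported here. Named were the members, Smarca4, pathway list genes past the threshold or with a p below 0.05 (otherwise the 2 largest rises and the 2 largest falls), and the 3 genes most like Igf1. Of the marker lists, only the macrophage list had genes past the threshold (3 of 9), and the alternatives run on these were chosen after seeing the data. Of the list symbols, 1 was matched by an older name. Alternatives changed the constant, the filter, the scaling, the variance trend, the replicate block and the livers included.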

Additional observations from a re-analysis of the deposited data

How the results depend on the processing

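When single livers were left out, the count of genes past the threshold ranged from 73 (without WT replicate 2) to 557 (without LKO replicate 1), the axis members called from 0 to 1 (Igfals without WT replicate 1, Igfbp1 without LKO replicate 1, Irs2 without LKO replicate 2), and the other pathway genes called from 2 to 7. The log2 fold change ranged from −0.19 to 0.29 for Ghr, −0.20 to 0.70 for Igf1, −1.08 to 0.38 for Igfals, −1.15 to 1.00 for Igfbp1, −0.0103 to 0.10 for Insr and −0.0284 to 1.15 for Irs2, and kept its sign for Socs2, Igfbp2, Igfbp3 and Irs1. The log2 difference of within-liver ratios ranged from −1.31 to 0.10 for Igfals to Igf1, from −1.71 to 0.75 for Igfbp1 to Igfbp2, from 0.0292 to 1.44 for Irs2 to Irs1, and from −0.79 to −0.47 for Socs2 to Ghr. The list medians moved too, from −0.07 to 0.26 for the members and from −0.69 to −0.24 for the female-biased genes. Of 121 genes past the threshold, a filter at 1 FPKM left a count of 68, no filter gave 80 and a constant of 1 gave 18. Among the fits that kept every liver, the filter at 1 FPKM gave 2 genes at a limma adjusted p below 0.05, against 0 in the main fit. Fits with a liver left out have only 1 liver in a group, so their counts at an adjusted p are not given and were not always 0. With a constant of 1 the pathway genes called fell from 2 to 0 and the Smarca4 fold change was −0.85, since the constant shrinks the changes of low genes. The filter at 1 FPKM, median-ratio rescaling and quantile normalization each left 1 pathway gene called. Apart from the left-out livers, no alternative changed the sign or the call of a member, and median-ratio rescaling raised the members with separate groups from 2 to 3 by adding Irs1. With the replicate block, 108 genes passed, among them 0 members and 3 pathway genes (Cux2 beside Cish and Cyp2b9). Deviations of same-numbered livers correlated at r = 0.03 across genes, a measure that cannot see a shift common to all genes. Such a shift was present, with a median log2 difference of replicate 1 from replicate 2 of −0.28 in LKO and −0.29 in WT livers. Whether the numbers pair the livers was thus not settled, and the main fit did not pair them. The female-biased median was −0.28 and the insulin-induced median 0.46 with no filter.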
